A study of Rattus norvegicus with 8 samples.

Results

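The unfolded protein response and the folding machinery of the endoplasmic reticulum (ER) were followed as a set of 33 genes in the liver of diabetic rats. A gene belonged to the set when the platform annotation gave a probe set 1 gene symbol and that symbol stood in a list of sensors, transcription factors, chaperones, disulfide isomerases, lectins and degradation factors. Of the 33 genes, 32 had at least 1 probe set on the array and Ern1, which encodes the stress sensor IRE1, had none. The 32 genes had 44 of the 31042 probe sets other than the manufacturer's controls, and 14217 genes were named in all.

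Livers came from male Goto-Kakizaki (GK) rats, a lean inbred model of type 2 diabetes, aged 18 weeks. For 12 weeks 4 rats ate AIN-93G, a purified rodent diet (control diet), and 4 ate AIN-93G containing an extract of persimmon peel (persimmon peel diet). The study asked how the extract changed hepatic gene expression. RNA of each liver was hybridised to 1 Affymetrix array, so every comparison has 4 arrays a diet, and the whole liver was measured with all its cell types. In such bulk RNA, fewer cells of a type and less RNA per cell cannot be told apart. Both groups are of the GK strain, and no rat of another strain was analysed here.

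Hepatocytes secrete most plasma proteins, and these proteins fold in the ER. Chaperones such as BiP (Hspa5) bind unfolded chains, isomerases form their disulfide bonds, and the lectins calnexin and calreticulin hold glycoproteins until they are folded. When unfolded chains build up, 3 sensors in the ER membrane respond: ATF6 and IRE1, with its target XBP1, raise chaperone and degradation genes, and PERK (Eif2ak3) phosphorylates eIF2alpha, which slows translation and favours ATF4. Many of these genes carry a DNA element that ATF6 and XBP1 use, the ER stress response element (ERSE).

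Sequences in front of the genes showed how far they share that element. RefSeq promoter windows of rat assembly GRCr8, from 250 bases before to 50 after the gene start, were found for 25 of the 33 genes. ERSE was searched as CCAAT followed after 9 bases by CCACG, and its shorter form ERSE-II as ATTGG followed after 1 base by CCACG, on both strands. The first was present in the windows of 7 of the 25 genes and in 0.0657% of all 33469 windows (22 of them). The second was present in 3 of the 25 genes and in 0.0508% of all windows (17 of them). The 10 genes with either element are shown because they are the textbook targets whose signals follow. In the lines below the capitals mark the fixed letters of the element, and each line reads 5′ to 3′ on the strand that carries the motif.
Hspa5 (chr3:38452968-38452996, + strand): gttcaCCAATcggaggcctCCACGacggg
Hsp90b1, near element (chr7:23012342-23012370, + strand): acccaCCAATcgtgcctcaCCACGcactc
Hsp90b1, far element (chr7:23012446-23012474, - strand): caaacCCAATcgaaaggagCCACGcttcg
Xbp1 (chr14:84604553-84604581, + strand): acaggCCAATcgcagacggCCACGaccct
Calr (chr19:40213130-40213158, - strand): ctgggCCAATcagggtcgaCCACGcgttg
Canx (chr10:35158064-35158092, - strand): cttgtCCAATcatcacgctCCACGaagaa
Dnajc3 (chr15:102432529-102432557, + strand): caaagCCAATcagcgccaaCCACGaccca
Creld2 (chr7:121789234-121789262, - strand): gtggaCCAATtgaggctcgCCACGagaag
Dnajb11, ERSE-II (chr11:91672791-91672819, - strand): caggcggcgATTGGcCCACGcctggctgc
Herpud1, ERSE-II (chr19:10614812-10614840, - strand): cgggcgctgATTGGgCCACGttgggcact
Hyou1, far ERSE-II (chr8:53602685-53602713, - strand): tggctgcggATTGGcCCACGtcacggttc
Hyou1, near ERSE-II (chr8:53602785-53602813, - strand): cacgtccccATTGGgCCACGtagaagacc

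The first base of the element of Hspa5 lies 43 bases before the gene start and that of Xbp1 lies 65 bases before it. Hsp90b1 and Hyou1 each hold 2 elements. An element that PERK's effector ATF4 uses, searched as TGATGCAA, was found for Herpud1 and Ppp1r15b and in 0.795% of all windows. Another element of XBP1 and ATF6, TGACGTGG, was found for Hyou1 and Vcp and in 0.595% of all windows. In Hyou1 it overlaps the far ERSE-II. A match describes these letters only, and the absence of one says nothing about the factor.

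None of the 32 measured genes passed the test between the diets in its brightest probe set. For each gene the probe set with the most signal over the 8 arrays was taken as its value, and the diets were compared with limma over all tested probe sets, with a call at a Benjamini-Hochberg adjusted p under 0.05. All 32 genes passed the filter on dim probe sets through such a set. The count was 0 lower and 0 higher of 32, where 1.93% of the brightest sets of all 9174 tested genes were lower and 0.469% were higher. Counted over all 43 tested sets of these genes, 2 were lower (of Canx and Edem1) and 0 higher. Of all 15521 tested sets, 4.53% were lower and 0.425% higher. At an unadjusted p under 0.05, 3 of the 32 were lower (Pdia3, Edem1 and Dnajb9) and 1 was higher (Ppp1r15a), beside 9.48% lower and 6.8% higher over all genes. The log2 fold change, written below as the log2 difference, is persimmon peel minus control diet. Its median was -0.026 over the 32 genes and 0.014 over all tested genes. Negative values were found in 21 of the 32 genes, beside 47.4% of all tested genes. After quantile normalization there were 15, beside 40.9%, and after median centring 24, beside 51.4%. The medians were then 0.013 beside 0.046 over all tested genes, and -0.047 beside -0.007. The set's median lay below that of all genes in the 3 settings, but its sign changed with the scaling. No test of the set as a whole was run.

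**Figure D1:**
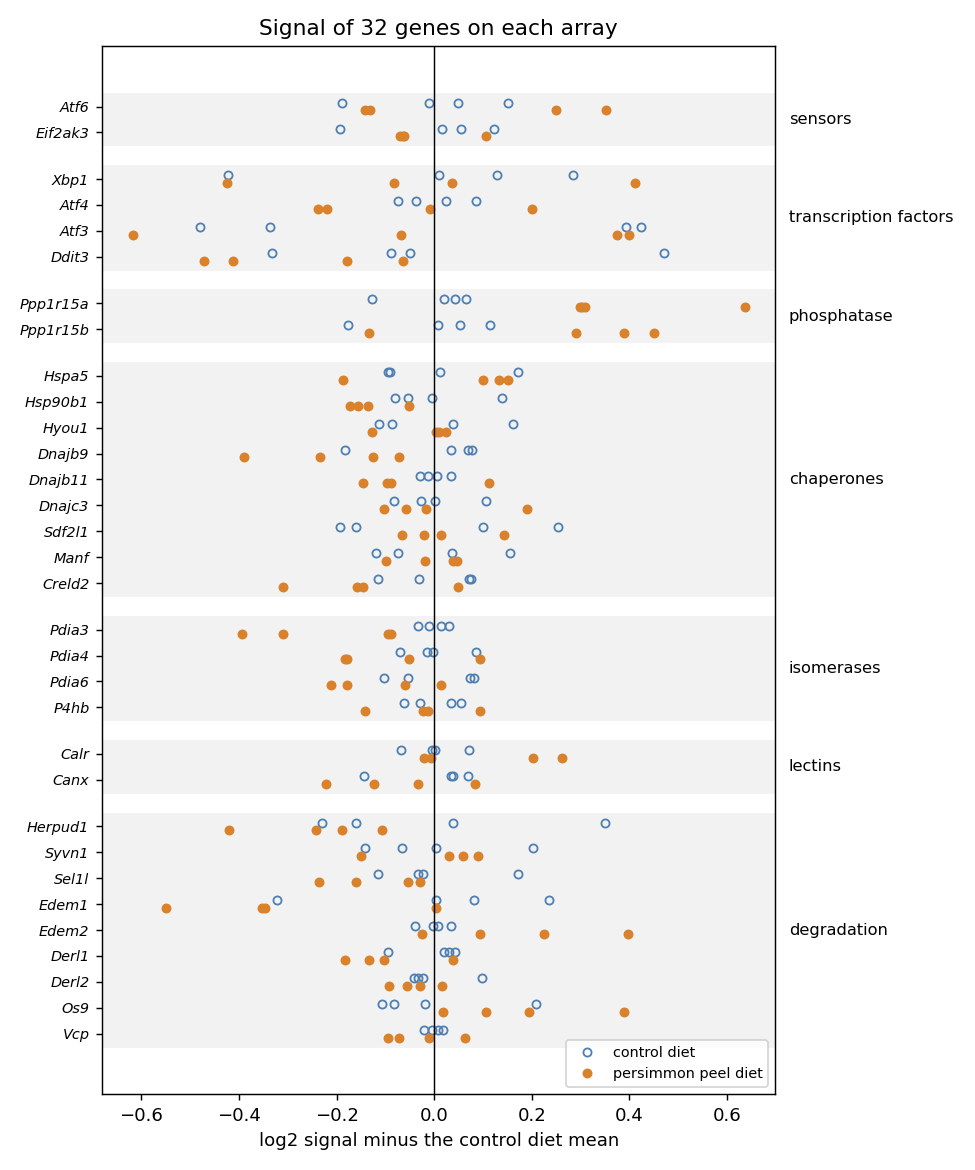
Each point is 1 array: the x axis is the log2 signal minus that gene's control diet mean, the y axis lists the 32 genes by role, open circles are the 4 control diet arrays and filled circles the 4 persimmon peel diet arrays. The diets overlap in every gene except Ppp1r15a, whose 4 persimmon peel points lie to the right, and Pdia3, whose 4 lie to the left.

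In the brightest probe sets, the size of a difference was bounded more tightly than the lack of calls alone shows. For 27 of the 32 genes the 95% interval of the log2 fold change lay inside -0.5 to 0.5, a limit of 1.41-fold either way. In 18 genes the estimate itself was under 0.1 in size. The interval reached 0.14 to each side for P4hb, the narrowest, and 0.56 for Atf3, the widest. Of the 5 genes with wider reach, Ddit3, Atf3 and Edem1 reached below -0.5 and Atf3, Ppp1r15a and Ppp1r15b reached above 0.5. These intervals hold for the brightest set of a gene in the main fit only. For Canx the interval ran from -0.25 to 0.10, while its dimmest set stood at -0.74. Over the alternative settings the estimate reached -0.59 for Xbp1 and -0.54 for Atf4.

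**Figure D2:**
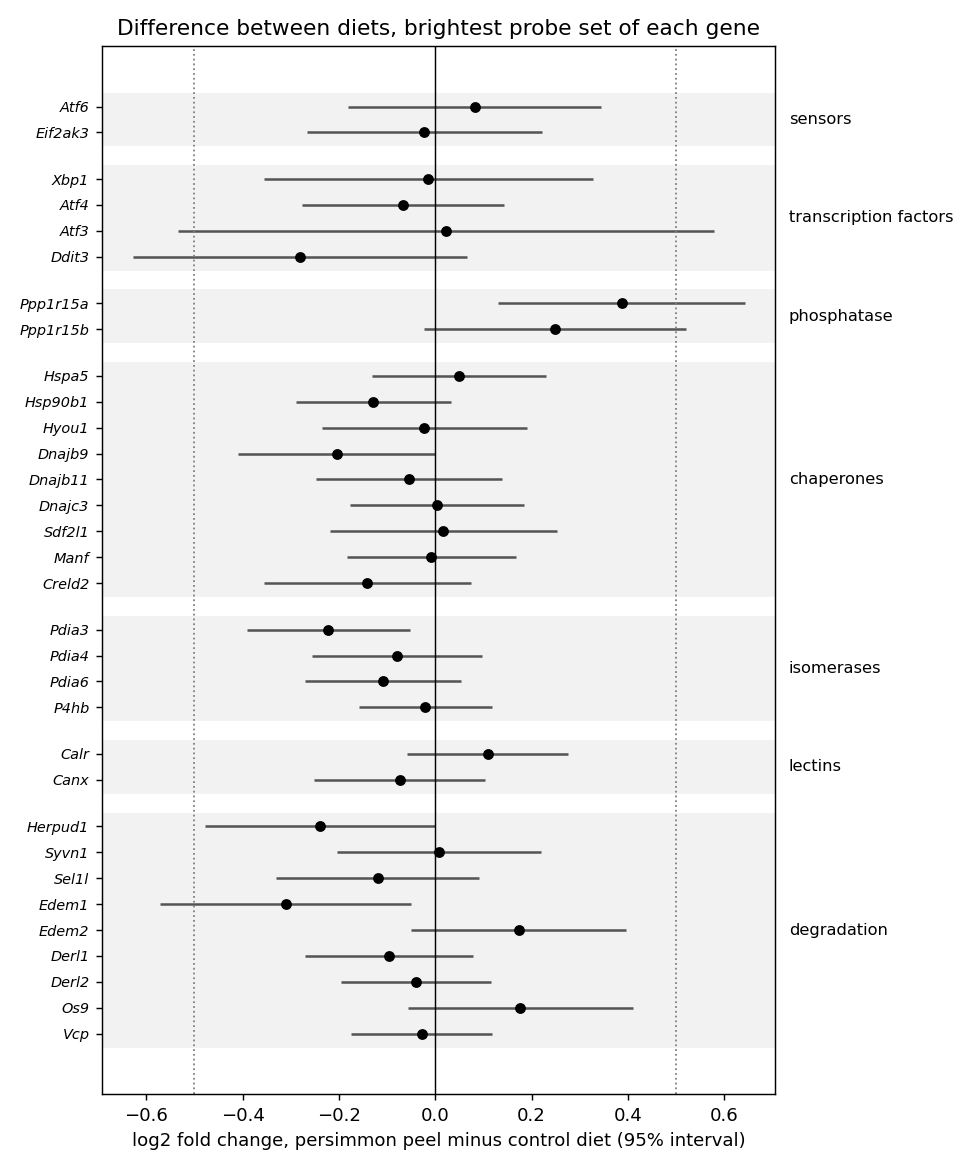
Points are log2 fold changes, persimmon peel minus control diet, in the brightest probe set of each of the 32 genes, and bars are 95% intervals from limma with 4 arrays a diet. Dotted lines mark -0.5 and 0.5, which contain the whole bar in 27 genes, and the bars of Ppp1r15a, Dnajb9, Pdia3 and Edem1 leave out 0.

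Among the sensors, neither of the measured genes passed the test. Atf6 encodes the membrane-bound factor that is cut and moves to the nucleus under stress. Its signal was 640, 667, 565 and 716 on the control diet and 766, 584, 823 and 589 on the persimmon peel diet. Persimmon peel arrays 1 and 3 were above every control array and arrays 2 and 4 lay among them. The log2 fold change was 0.08 (SE 0.12, adjusted p = 0.759), and -0.08 in the dimmer of its 2 sets. Eif2ak3, which encodes PERK, had signals of 161, 136, 157 and 169 on the control diet and of 149, 149, 167 and 148 with the extract. Every persimmon peel array lay within the range of the controls, at a log2 difference of -0.02 (SE 0.11, adjusted p = 0.938).

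Of the 4 transcription factors of the response 0 passed the test, and Xbp1 and Atf3 varied more between rats of a diet than between the diets. Xbp1 encodes the factor that IRE1 activates by splicing, and this probe set measures its total RNA in an unknown mix of both forms. On the control diet it had signals of 3446, 3092, 2847 and 2109, and with the extract 2900, 2107, 3764 and 2671. Each diet held a liver at the low end (2109 and 2107) and one far above it, and the means were 2874 ± 566 and 2860 ± 688 (n = 4 each, ± SD; log2 difference -0.01, SE 0.16, adjusted p = 0.972). Atf4, the effector of PERK, went from 1515 ± 74.1 to 1456 ± 214 (SD, n = 4 each; adjusted p = 0.756), with its lowest and its highest arrays both on the persimmon peel diet, at 1283 and 1739. Atf3, a stress factor induced by ATF4, was dim in these livers. Its signals were 68.5, 37.4, 41.4 and 70.1 on the control diet and 49.8, 34.0, 67.7 and 68.9 with the extract, against 34.4 for the dimmest set tested. Its pooled log2 SD of 0.48 within a diet was the largest of the 32 genes, and the diets did not separate (adjusted p = 0.975).

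Ddit3 encodes CHOP, the factor tied to cell death after prolonged stress. It had signals of 150, 146, 123 and 215 on the control diet and 137, 116, 148 and 112 on the persimmon peel diet. Control array 4 was the highest, and 2 persimmon peel arrays lay below all controls. The log2 fold change was -0.28 (SE 0.16, adjusted p = 0.362), with an interval from -0.63 to 0.07.

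Ppp1r15a and Ppp1r15b had the largest positive values of the set. They encode GADD34 and CReP, the stress-induced and the constitutive subunit that bring a phosphatase to eIF2alpha and so restart translation. Signals of Ppp1r15a were 127, 128, 114 and 131 on the control diet and 154, 154, 194 and 155 with the extract. All 4 persimmon peel arrays lay above all 4 controls, as in 3.24% of all tested genes, and array 3 stood well above the other 3. The means were 125 ± 7.27 and 164 ± 19.98 (n = 4 each, ± SD; log2 difference 0.39, SE 0.12, adjusted p = 0.0795). This was not a call, but after quantile normalization it became one (0.41, adjusted p = 0.0258), and over the alternatives the adjusted p ran from 0.0258 to 1.00. Ppp1r15b had signals of 322, 366, 378 and 394 on the control diet and 498, 332, 446 and 477 on the persimmon peel diet. Persimmon peel array 2 lay among the controls and the other 3 lay above them (log2 difference 0.25, SE 0.13, adjusted p = 0.299). Without that array it passed (0.38, adjusted p = 0.0461). With the beta-actin ratio described below as a covariate its value turned to -0.44 (adjusted p = 1.00). The other probe set of Ppp1r15b was too dim for the filter and was not tested. Its signal was 23.3 ± 4.78 on the control diet and 15.2 ± 7.18 on the persimmon peel diet (n = 4 each, ± SD).

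Among the chaperones and their helpers 0 of 9 genes were called, with log2 fold changes between -0.20 and 0.05. Hspa5 encodes BiP, the main Hsp70 of the ER and the usual readout of the response. Its signals were 5083, 6089, 5070 and 5457 on the control diet and 5928, 5795, 6010 and 4755 on the persimmon peel diet. The lowest array of all was persimmon peel array 4 and the highest was control array 2. The log2 fold change was 0.05 (SE 0.08, adjusted p = 0.792) and its interval ran from -0.13 to 0.23. Hsp90b1 encodes GRP94, the Hsp90 of the ER. It had signals of 1899, 1863, 1965 and 2170 on the control diet and 1749, 1903, 1795 and 1769 with the extract. Persimmon peel arrays 1, 3 and 4 lay below every control and array 2 lay among them (log2 difference -0.13, SE 0.08, adjusted p = 0.369).

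Dnajb9 encodes ERdj4, a BiP co-chaperone that restrains IRE1. Signals were 1066, 918, 1099 and 1093 on the control diet and 886, 955, 991 and 795 with the extract. Control array 2 was low for its group and lay among the persimmon peel arrays, and the log2 fold change was -0.20 (SE 0.10, adjusted p = 0.253). Dnajc3, which encodes the PERK inhibitor p58IPK, differed least of the 9, with 1450 ± 80.9 against 1456 ± 135 (SD, n = 4 each). The secreted factors Manf and Creld2 had log2 fold changes of -0.01 and -0.14, and the stress-inducible Sdf2l1 one of 0.02. Dnajb11, a co-chaperone that hands chains to BiP, stood at -0.05. The nucleotide exchange factor gene Hyou1 stood at -0.02 in its brighter set and at -0.43 in its dimmer set (SE 0.16, adjusted p = 0.159).

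All 4 disulfide isomerases of the set had negative values and 0 of 4 passed. Quantile normalization turned P4hb positive, which left 3. In the oxidative folding branch of the second list described below, 10 of 18 genes were negative and 8 positive. Pdia5 was among the positive ones (0.10, adjusted p = 0.657). Pdia3 encodes ERp57, the isomerase that works with calnexin and calreticulin on glycoproteins. It had signals of 3056, 3105, 3192 and 3156 on the control diet and 2930, 2522, 2940 and 2379 on the persimmon peel diet. The 4 persimmon peel arrays lay below all 4 controls, as in 7.21% of all tested genes, with arrays 2 and 4 lowest. The means were 3127 ± 59.3 and 2692 ± 286 (n = 4 each, ± SD; log2 difference -0.22, SE 0.08, adjusted p = 0.128). Its dim second set stood at 0.05 (SE 0.18). P4hb, the prototype isomerase, was bounded most tightly of the 32 genes, at -0.02 with an interval from -0.16 to 0.12. Pdia4 stood at -0.08 and Pdia6, which also acts on IRE1, at -0.11.

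The lectin chaperones calreticulin and calnexin did not pass the test in their brightest sets. Calr went from 3059 ± 122 to 3310 ± 332 (n = 4 each, ± SD; log2 difference 0.11, SE 0.08, adjusted p = 0.472). The brightest set of Canx went from 2257 ± 146 to 2147 ± 195 (n = 4 each, ± SD; log2 difference -0.07, SE 0.08, adjusted p = 0.666). The other sets of Canx did otherwise. Its dimmest set had signals of 580, 491, 534 and 687 on the control diet and 317, 412, 307 and 335 on the persimmon peel diet, with no overlap. That set was lower with the extract (log2 difference -0.74, SE 0.12, adjusted p = 0.0046), and the set between them stood at -0.30 (SE 0.09, adjusted p = 0.0568). The call on the dimmest set held with each array left out in turn. It was lost without persimmon peel arrays 1 and 3 together (-0.61, adjusted p = 0.0749) and with the beta-actin ratio described below as a covariate (-0.33, adjusted p = 1.00). The fit without arrays 1 and 3 was chosen after seeing the data and has fewer arrays. In it, sets called lower over the whole array fell from 703 to 75. A call lost there does not by itself show that the difference rests on these arrays.

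ER-associated degradation pulls misfolded proteins back to the cytosol for the proteasome, and 0 of its 9 genes passed in their brightest sets. Edem1 encodes a lectin that hands misfolded glycoproteins to this pathway. Its brightest set had signals of 2682, 3547, 3360 and 3943 on the control diet and 2625, 3361, 2635 and 2289 with the extract. Control array 1 lay among the persimmon peel arrays and persimmon peel array 2 among the controls (log2 difference -0.31, SE 0.12, adjusted p = 0.166). Without that persimmon peel array the gene passed (-0.42, adjusted p = 0.0328). Another of its 3 sets was lower: 722, 804, 972 and 976 on the control diet and 535, 693, 383 and 440 with the extract, without overlap (log2 difference -0.78, SE 0.16, adjusted p = 0.0116). This call too held with each array left out. It was lost without persimmon peel arrays 1 and 3 (-0.64, adjusted p = 0.122) and with the covariate (-0.24, adjusted p = 1.00). The limit given for Canx on the fit without arrays 1 and 3 holds here as well. The remaining set stood at -0.14 (adjusted p = 0.444).

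Herpud1, a scaffold of the degradation complex and a strong stress target, had signals of 2722, 2593, 3121 and 3875 on the control diet. With the extract it had 2272, 2570, 2668 and 2823. Control arrays 3 and 4 were the high ones, and the rest overlapped (log2 difference -0.24, SE 0.11, adjusted p = 0.255). Syvn1, the ubiquitin ligase HRD1 of the complex, stood at 0.01 and its partner Sel1l at -0.12. The membrane channel genes Derl1 and Derl2 stood at -0.10 and -0.04 in their brightest sets. The other sets of Derl1 stood at -0.12 (adjusted p = 0.558) and -0.28 (SE 0.09, adjusted p = 0.0899), and that of Derl2 at 0.05. The ATPase gene Vcp, which extracts the substrate, stood at -0.03. Positive values were found for the lectin gene Os9 (0.18, adjusted p = 0.396) and for Edem2 (0.17, adjusted p = 0.385).

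Genes with and without the element were set side by side as a description. The median was -0.039 over the 10 genes with ERSE or ERSE-II in the window and -0.029 over the 15 genes with a window and neither element. Values ran from -0.24 to 0.11 in the first and from -0.31 to 0.39 in the second group, and 0 genes were called in either.

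The spread between rats of a diet is given as a description, with no test. The SD of log2 signal within a diet, pooled over both diets, had a median of 0.12 over the 32 genes and of 0.17 over all tested genes, which were dimmer on the whole. Set against all genes in 20 bins of signal, 8 of the 32 lay above the middle 50% of the nearest bin, 10 below and 14 within it. By construction 50% of the genes of a bin lie within that band, with equal shares above and below. The counts of the set were near these shares. The 8 above the band were Hspa5, Edem1, Xbp1, Herpud1, Atf6, Ppp1r15b, Ddit3 and Atf3. Among the 10 below it were Vcp, Derl2, Derl1, Hsp90b1, Hyou1 and Dnajb11. For Xbp1 the brightest liver had 1.79 times the signal of the dimmest, for Vcp 1.11 times. Persimmon peel array 3 was the highest array for 11 of the 32 genes and control array 4 for 10, while persimmon peel array 4 was the lowest for 10. Over all 9174 genes array 3 of the persimmon peel diet was the highest for 4060 and array 4 of the control diet for 1980, so both stood high for much of the array. Array 4 of the persimmon peel diet was the lowest for 1058 of the 9174.

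**Figure D3:**
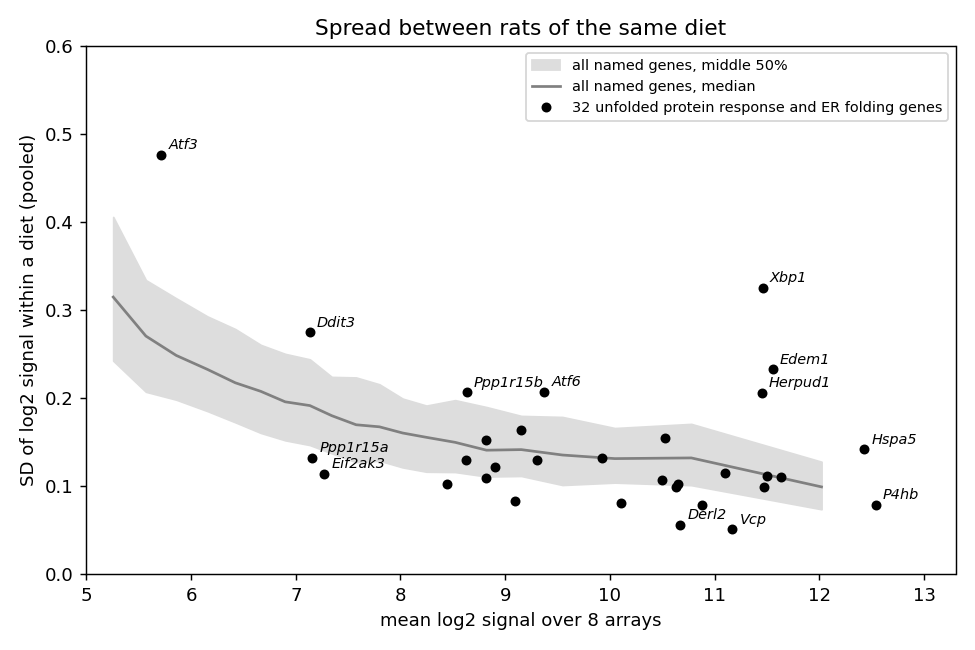
The x axis is the mean log2 signal over 8 arrays and the y axis the pooled SD of log2 signal within a diet. Black points are the 32 genes, and the grey line and band are the median and middle 50% of all named genes in 20 signal bins: Atf3 at 0.48 and Xbp1 at 0.33 lie far above the band, Vcp at 0.05 below it.

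Probe sets of 1 gene could move by different amounts, which bears on Canx and Edem1. 8 genes of the set had several tested sets (Atf6, Canx, Derl1, Derl2, Edem1, Hyou1, Os9 and Pdia3). Of their 11 dimmer sets 2 were lower, against 0 of their 8 brightest sets. Over all named genes with several sets, 13.8% of the dimmer and 2.31% of the brightest sets were lower, and the counts of this gene set are read against these shares. Sets were ranked by their mean over all 8 arrays, so a set that differs between the diets helps to fix its own rank. Ranked on the control diet alone, 13.4% of the dimmer and 2.79% of the brightest sets were lower, and ranked on the persimmon peel diet alone 14.1% and 1.92%. Of the 11 dimmer sets of the 8 genes 2 were lower under either ranking. Whether the dimmest set moved apart from the brightest was tested by limma over 2295 genes, of which 11.8% were lower and 1.05% higher with the extract. Of the 8 genes of the set, Canx alone passed this test (-0.67, SE 0.16, adjusted p = 0.0236). It lost the call without control array 1, 3 or 4 or persimmon peel array 1 or 3. Its value stayed at -0.67 under either ranking. Edem1 (-0.47, SE 0.16, adjusted p = 0.0694) and Hyou1 (-0.40, SE 0.16, adjusted p = 0.106) did not pass. For Edem1 the value rests on the ranking: the called set, at 868 on the control diet, was there brighter than the remaining set at 806, and ranking on that diet gave 0.17 (SE 0.15, adjusted p = 0.470). Where along the transcript each set lies was not analysed here.

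**Figure D4:**
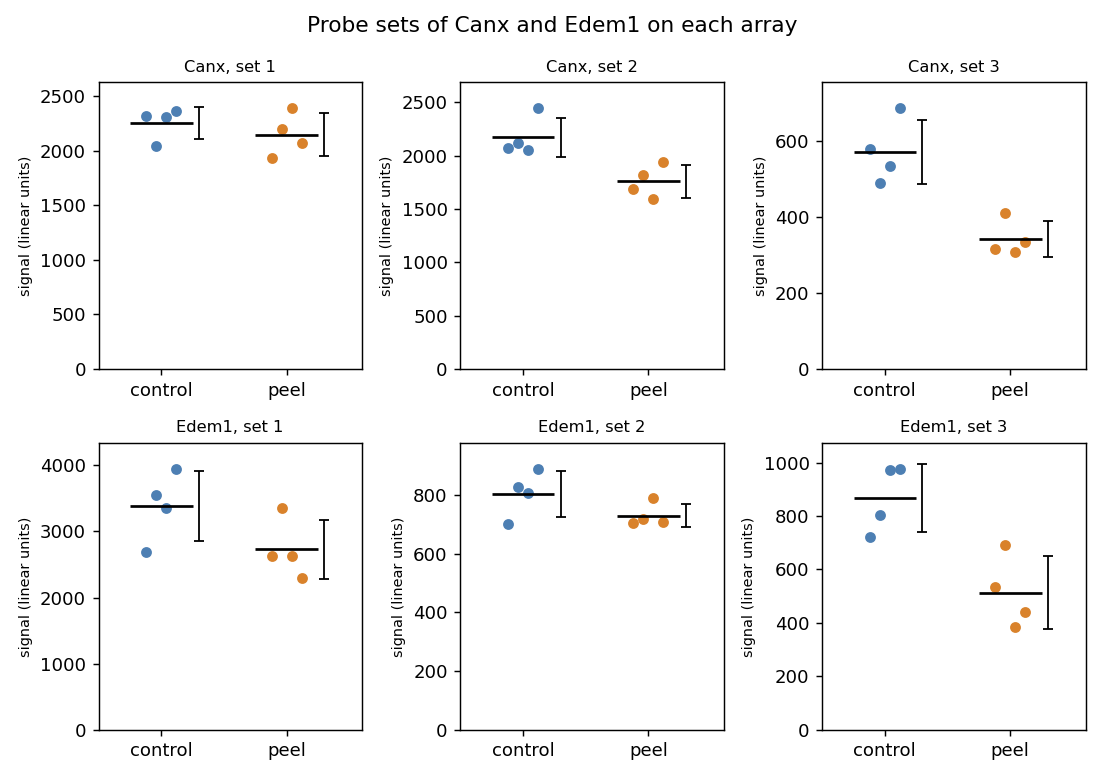
Signal on a linear scale starting at 0 for the 3 probe sets of Canx (top) and of Edem1 (bottom), numbered by mean signal over all 8 arrays, control diet left and persimmon peel diet right in each panel. Points are arrays, lines are means and bars are ± 1 SD (n = 4); of the 3 sets of each gene only the right-hand one was called lower, -0.74 for Canx and -0.78 for Edem1.

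Control ratios for RNA quality moved with the diets in the same arrays. For beta-actin, the middle set against the 3' set gave a log2 ratio of -0.76 ± 0.02 in the control livers and -1.06 ± 0.11 with the extract (SD, n = 4 each). The exact two-sided permutation p was 0.0286, which this design cannot go below, and 0.0571 adjusted over 4 ratios. The 5' set against the 3' set of beta-actin gave -1.68 ± 0.12 and -1.97 ± 0.22, with the same exact p and adjusted p. For GAPDH the 5' set against the 3' set gave -0.29 ± 0.10 and -0.43 ± 0.08 (exact p = 0.0857, adjusted 0.114), and the middle set -0.58 ± 0.03 and -0.59 ± 0.05 (exact p = 0.857). With the middle beta-actin ratio as a covariate, 0 probe sets of the array were called, and the ratio and the diet were themselves hard to separate. The part of these ratios in the values of Canx, Edem1 and the genes below was not tested.

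Markers of the liver and of other cell types were read from marker lists. The hepatocyte marker Alb was bright (9643 ± 354 and 8928 ± 400, SD, n = 4 each). Of the 9 measured markers of that list 1 was lower, the enzyme gene Tat, beside 1.93% of all tested genes. Hnf4a was positive in its brightest set (log2 difference 0.23, SE 0.08, adjusted p = 0.127) and stood at -0.38 and -0.15 in its other sets. The other measured markers of the list were negative in their brightest sets. The summed signal of the 9 ran from 77672 to 81673 on the control diet and from 70713 to 75464 with the extract, without overlap. A linear sum weighs the brightest genes most. The summed signal of the 8 measured Kupffer cell and macrophage markers ran from 5090 to 6569 on the control and from 5712 to 9266 on the persimmon peel diet, highest in array 3, and 0 of 8 were called. Plasma cells depend on XBP1 and are rich in ER. Their marker Jchain had 169 ± 34.4 and 164 ± 53.0 (SD, n = 4 each). It was highest, at 244, in persimmon peel array 3, which was also highest for Xbp1 and for 4060 of all 9174 tested genes. Markers of T, B and plasma cells summed to 376 to 479 and 328 to 531, with 2 of 8 measured genes above the filter, and cholangiocyte markers to 246 to 343 and 270 to 291. Stellate cell and fibroblast markers summed to 884 to 1209 and 803 to 1033, endothelial markers to 3887 to 4211 and 3366 to 4415, and blood cell markers to 3194 to 8649 and 4516 to 6257. Except for hepatocytes, the sums of the diets overlapped in every list, with 0 calls. Their part in the results was not tested.

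The machinery around the folding genes was read from a second list of 112 ER genes, of which 107 were on the array and 103 passed the filter. In their brightest sets 5 were lower with the extract and 0 higher, beside the 1.93% and 0.469% of all genes given above. At an unadjusted p under 0.05 there were 20 lower and 0 higher of 103, beside 9.48% and 6.8% of all genes. Counted over all 143 tested sets, 14 were lower and 1 higher, where 4.53% and 0.425% of all 15521 sets were called. The median of the 103 genes was -0.032.

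Lman1 had the smallest p among the brightest sets of the list. It encodes ERGIC-53, the cargo receptor that carries glycoproteins such as coagulation factors out of the ER. Its signals were 281, 231, 271 and 289 on the control diet and 134, 221, 133 and 126 with the extract. The diets did not overlap, though persimmon peel array 2 lay near the lowest control (log2 difference -0.84, SE 0.16, adjusted p = 0.00906). It has 1 probe set. The call held with each array left out in turn. It was lost without persimmon peel arrays 1 and 3 together, a fit with the limit given for Canx. With the beta-actin covariate it was lost too, and the value was 0.02. Uggt1 encodes the folding sensor that returns misfolded glycoproteins to calnexin. It went from 157 ± 31.5 to 97.0 ± 21.0 (n = 4 each, ± SD; log2 difference -0.70, SE 0.17, adjusted p = 0.0291), with control array 4 far above the rest at 204. Both lie in the glycoprotein branch, in which 2 of 14 genes were lower and the median was 0.0019.

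Selenot encodes an oxidoreductase of the ER membrane. It had signals of 1870, 1767, 1861 and 1940 on the control and 1304, 1555, 1438 and 1583 with the extract, without overlap (log2 difference -0.34, SE 0.08, adjusted p = 0.0264). Its second set was lower too (-0.58, SE 0.09, adjusted p = 0.00387). It was the 1 gene called of 18 in oxidative folding. Erp44, which retains cargo in the early secretory pathway, stood at -0.02 in its brightest set and was lower in its second set (-0.79, SE 0.13, adjusted p = 0.00454).

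In the translocon, through which new chains enter the ER, 2 of 17 genes were lower. Serp1, a stress-associated protein of the translocon, went from 3153 ± 196 to 2581 ± 201 (n = 4 each, ± SD; log2 difference -0.29, SE 0.08, adjusted p = 0.0427), and its second set was lower as well (-0.59, SE 0.11, adjusted p = 0.0089). Spcs3, a subunit of signal peptidase, went from 2633 ± 200 to 2134 ± 156 (n = 4 each, ± SD; log2 difference -0.30, SE 0.08, adjusted p = 0.0437). The sets of the translocon-associated gene Ssr3 disagreed: its brightest stood at -0.10 (adjusted p = 0.506), its second was the 1 higher set of the list (0.38, SE 0.09, adjusted p = 0.0203) and its dimmest stood at -0.58 (adjusted p = 0.0643). Sec63, a BiP partner at the channel, had a set that was lower (-0.59, SE 0.12, adjusted p = 0.0144), with -0.26 in its brightest and 0.19 in another.

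**Figure D5:**
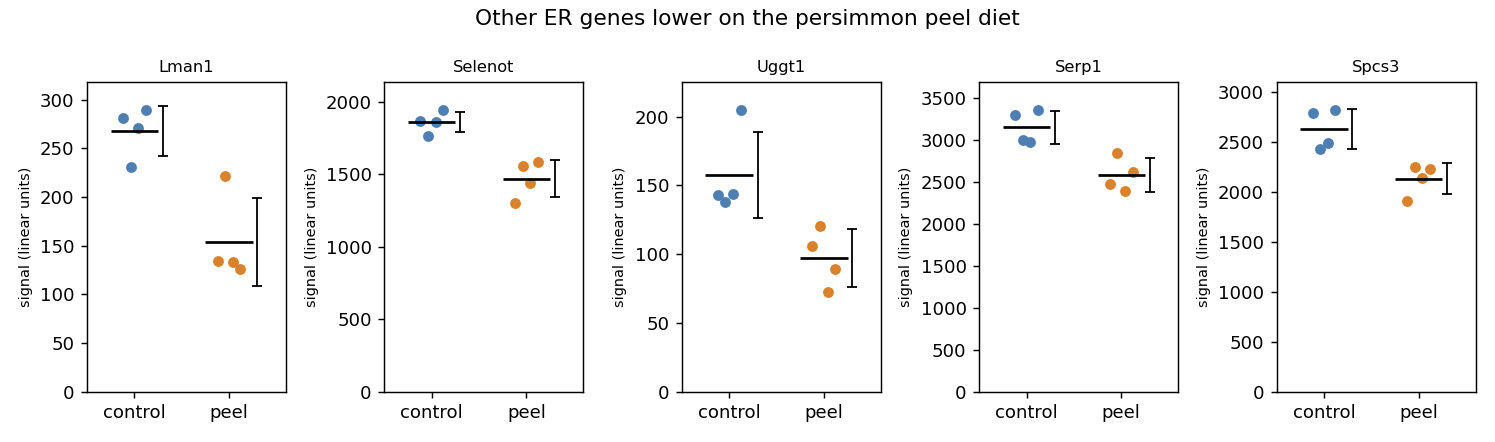
Signal on a linear scale starting at 0 for the 5 other ER genes called lower in their brightest probe set, in order of adjusted p. Points are arrays, lines are means and bars are ± 1 SD (n = 4): no persimmon peel point reaches the lowest control point in any of the 5 genes.

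The remaining branches had 0 calls in their brightest sets. In the PERK and ATF4 branch 14 genes were tested. The brightest set of Cebpg, a partner of ATF4, stood at -0.12, while its dimmer set was lower (-0.86, SE 0.13, adjusted p = 0.00364). Cebpb, a partner of CHOP, had the smallest p there (-0.17, adjusted p = 0.209). Of 7 genes of the ATF6 family and its proteases the smallest p was that of Mbtps2, the protease that makes the second cut of ATF6 (-0.28, adjusted p = 0.217). Around IRE1, 7 genes were tested and Bcap31 led with -0.15 (adjusted p = 0.437). Of 13 other degradation genes Nfe2l1, a factor that passes through this pathway, led with 0.27 (adjusted p = 0.317). In that branch Erlec1 (-0.56, SE 0.11, adjusted p = 0.0118) and Ubxn4 (-0.64, SE 0.16, adjusted p = 0.033) were lower in a dimmer set and stood at -0.09 and -0.16 in the brightest. For export from the ER, 13 genes were tested and Sec24d, a coat subunit, came nearest to a call (-0.37, SE 0.10, adjusted p = 0.058). A dimmer set of the export gene Tmed2 was lower (-0.99, SE 0.16, adjusted p = 0.00454), beside -0.10 in its brightest. Of the 2 sets of Sar1a, which encodes a GTPase of the same coat, 1 was lower (-0.42, SE 0.09, adjusted p = 0.0203) and the other stood at -0.04. The lower one was the brighter of the 2 on the control diet (1002 against 919) and the dimmer over all arrays.

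The number of calls in the second list changed with the arrays used. Leaving out 1 array at a time gave 1 lower gene without control array 1, control array 4 or persimmon peel array 1, 2 without persimmon peel array 3 or 4, 3 without control array 3, 4 without control array 2 and 8 without persimmon peel array 2. Lman1 was called in all 8 of these fits, Selenot in 4, Uggt1 and Spcs3 in 2 each and Serp1 in 1. In these fits the log2 difference ran from -1.03 to -0.76 for Lman1, from -0.38 to -0.29 for Selenot, from -0.82 to -0.57 for Uggt1, from -0.34 to -0.25 for Spcs3 and from -0.34 to -0.25 for Serp1. Quantile normalization left Lman1 as the 1 gene called, and 0 genes were called without persimmon peel arrays 1 and 3. In that last fit calls were fewer over the whole array too, as given for Canx.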

How the data were processed

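The deposited values are MAS5 signal intensities on a linear scale, 1 column per liver, made by the authors with MAS5 per the submitters' processing notes. Neither version nor scaling target is given in the sources used here. All 8 columns were used, with 0 left over, as log2 values without pseudocount. Array medians were 33.2 to 39.2 units, and for arrays their number limits the precision. Of 31042 non-control probe sets, 20826 had 1 gene symbol in the platform annotation, and 20758 of these were found by gene number in RefSeq (GRCr8).

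The dimmer 50% of probe sets by mean log2 signal was left out, which left 15521 sets with a mean of at least 34.4. The diets were compared with limma 3.58.1 in R 4.3.3 (lmFit, eBayes with an intensity trend, two-sided). Unless a sentence names another fit or setting, SEs and adjusted p (Benjamini-Hochberg over all tested sets) come from this fit. On simulated data it called 2 of 50 sets changed 1.25-fold and 25 of 50 changed 1.5-fold. It called 39 of 50 changed 2-fold and 47 of 50 changed 3-fold, so small changes were mostly missed in the simulation. The changed sets were drawn at random from all tested sets, and the noise was independent between sets. The 32 genes had a lower spread (median SD 0.12 beside 0.17 over all tested genes), so these shares are not rates for them. Differences between sets of a gene were fitted separately and adjusted over the genes with several sets, and signal means and SDs are linear. Control ratios were compared by exact permutation of the diets over the 8 arrays.

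The genes, lists and alternatives were chosen with earlier results of these data known. Per-array values are given for genes with a called set, the sensors, the transcription factors, Hspa5, Hsp90b1 and the 6 genes with the smallest p. From the second list, genes with a called set and the smallest p of each branch are named.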

Additional observations from a re-analysis of the deposited data

Results flagged for a closer look

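In groups of 4 arrays, a value whose gap to its neighbour, as a share of the group's range, passed Dixon's 95% critical value was listed. Among 154 groups of the named genes 16 were listed, where chance gives about 1 in 20. On the persimmon peel diet, array 3 was the highest for Eif2ak3 (167) and Ppp1r15a (194), and array 4 was the lowest for Hspa5 (4755) and the brighter set of Hyou1 (321) and the highest for the dimmer set of Derl2 (232). Array 2 of that diet was the highest for Lman1 (221) and Sec24d (950.4).

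On the control diet, array 2 was the lowest for Dnajb9 (918), the brightest set of Canx (2041) and the brightest set of Ssr3 (1754), and array 3 was the lowest for the brightest set of Derl1 (1067). Control array 4 was the highest for the second set of Canx (2443), the brighter set of Derl2 (1766), Uggt1 (204), the called set of Ubxn4 (323) and the called set of Erlec1 (506).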

How the results depend on the processing

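Of the 32 genes, 0 were called lower and 0 higher under median centring, a pseudocount of 16, no filter, the upper 30% of signal, no intensity trend, a robust fit, the replicate block, the beta-actin covariate, without persimmon peel arrays 1 and 3, and with 1 set per gene, its brightest, tested (these last 3 chosen after seeing the data). Quantile normalization called 1 higher (Ppp1r15a) and turned the median log2 fold change to 0.013, beside 0.046 over all tested genes. Averaging the probe sets of a gene called 1 lower (Canx). With the covariate the median moved to -0.11. Ranking the sets of a gene on 1 diet alone, also chosen after seeing the data, called 0 of the 32 either way. In the second list it called Sar1a too on the control diet ranking, 6 lower in all, and on the persimmon peel ranking 5 lower and 1 higher, Ssr3, which turned to 0.38 because another of its sets was then taken.

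Genes of the second list called lower numbered 1 under quantile normalization, with no filter, without the intensity trend and with only brightest sets tested, 3 with the replicate block, and 0 with the covariate or without persimmon peel arrays 1 and 3. Members lower in the dimmest minus brightest difference numbered 2 in the upper 30% of signal and 0 with no filter, with the replicate block, with the covariate and without persimmon peel arrays 1 and 3.

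Over the whole array, higher sets numbered 66 in all and 271 under quantile normalization, 26 with no filter, 41 in the upper 30%, 33 without the trend, 1 without persimmon peel arrays 1 and 3, and 0 with the covariate. Lower sets numbered 703 in all and 597, 441, 493, 486, 75 and 0 in that order. With each array left out in turn, lower sets ran from 295 to 942, higher sets from 12 to 267, members lower from 0 to 1, members higher from 0 to 1, lower genes of the second list from 1 to 8, higher ones from 0 to 0, the members' median from -0.063 to -0.012, and members lower in the set difference from 0 to 3, higher from 0 to 0. Lman1 turned to 0.016 with the covariate. The cause of these shifts was not tested.

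Same-numbered arrays of the 2 diets did not deviate together (r from -0.08 to 0.05 over the tested sets), so the replicate block removes residual degrees of freedom without a known pairing.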
